A study of Rattus norvegicus with 14 samples.

Results

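Sox9, Sox4, Sox5, Runx1, Runx2, Msx1 and Msx2 encode transcription factors that are best known from the formation of cartilage and bone. They were taken by their symbols as 7 of the 17312 genes in the deposited tables, and each of the 7 symbols had a row. The cells were rat aortic smooth muscle cells (RASMC), bought as primary cells and kept in culture, and their polyadenylated RNA was sequenced in 14 libraries. All 5 groups had first been held without serum for 24 h. The unstimulated group (2 libraries) was taken at 0 h with no further treatment. The PDGF 2 h and PDGF 24 h groups (3 libraries each) received platelet-derived growth factor (PDGF) at 925 ng/ml, as the labels give the dose, for 2 or 24 h. The JQ1 plus PDGF 2 h and JQ1 plus PDGF 24 h groups (3 libraries each) received 500 nM JQ1 for 3 h and then the same PDGF treatment. PDGF is a mitogen of smooth muscle cells, and JQ1 is a small-molecule BET bromodomain inhibitor.

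As background, SOX9 is the master regulator of chondrocyte identity and drives cartilage matrix genes such as Acan and Col2a1 together with SOX5 and SOX6. RUNX2 holds the corresponding place in osteoblasts, RUNX1 acts in blood formation and in early skeletal progenitors, and both bind DNA with the partner CBFB. MSX1 and MSX2 are homeobox factors induced by bone morphogenetic proteins (BMPs), SOX4 is a SoxC factor of progenitor cells, and in the vessel wall SOX9, RUNX2 and MSX2 are studied for their place in the calcification of smooth muscle cells.

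RUNX factors recognise a short core that these genes themselves can carry, so the start regions of the Runx genes are shown. RefSeq promoter windows of 300 bases were at hand for 4 of the 7 genes (Runx1, Runx2, Msx1 and Msx2, in 5 windows of build GRCr8), and none was at hand for Sox9, Sox4 and Sox5. The Runx2 window at the upstream start (chr9:23664808-23665107, plus strand) is printed first, then that at the downstream start (chr9:23742990-23743289, plus strand) and that of Runx1 (chr11:45421276-45421575, minus strand), each 5′ to 3′ along the gene, with matches to the RUNX core in capitals.
Runx2, upstream start: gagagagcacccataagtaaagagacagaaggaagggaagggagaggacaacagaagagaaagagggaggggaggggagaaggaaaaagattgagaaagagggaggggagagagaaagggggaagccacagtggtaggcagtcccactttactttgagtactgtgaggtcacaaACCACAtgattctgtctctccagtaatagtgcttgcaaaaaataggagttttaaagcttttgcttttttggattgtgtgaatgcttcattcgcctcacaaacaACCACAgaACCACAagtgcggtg
Runx2, downstream start: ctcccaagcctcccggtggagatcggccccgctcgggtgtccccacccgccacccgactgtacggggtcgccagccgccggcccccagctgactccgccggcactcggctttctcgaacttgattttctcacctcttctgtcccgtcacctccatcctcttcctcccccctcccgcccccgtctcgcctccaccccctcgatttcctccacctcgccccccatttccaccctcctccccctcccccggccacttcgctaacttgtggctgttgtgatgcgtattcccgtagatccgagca
Runx1: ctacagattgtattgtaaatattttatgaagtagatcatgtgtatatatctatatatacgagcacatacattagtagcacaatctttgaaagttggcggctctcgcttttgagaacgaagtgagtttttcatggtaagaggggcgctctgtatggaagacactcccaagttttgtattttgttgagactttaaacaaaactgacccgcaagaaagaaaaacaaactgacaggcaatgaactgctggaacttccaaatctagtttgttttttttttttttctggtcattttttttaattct

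The search was for TGTGGT or its reverse complement ACCACA. The upstream Runx2 window held 3 matches, all read as ACCACA, at positions -76, 28 and 36 counted from the transcription start. Of 33469 rat promoter windows of the same length, 17.3% held at least 1 match and 70 (0.209%) held 3 or more. Neither the downstream Runx2 window nor the windows of Runx1, Msx1 and Msx2 held one. A SOX core (AACAAT or ATTGTT, in 11.7% of all windows) and an MSX core (TAATTG or CAATTA, in 8.20%) had no match in the 5 windows. These are matches of letters only, and the expression values, given per gene, do not tell the 2 Runx2 starts apart.

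Levels are given as FPKM, a level per length of transcript, in the normalised form that the authors deposited. Its method is not given. That each library was adjusted with added spike-in RNA is inferred from the values, and the form is called the spike-in scale here. The shift was not the same for all genes of a library. In PDGF 2 h library 1, the log2 ratio of normalised FPKM to unnormalised FPKM + 0.1 was 0.03 for Sox9 and 0.48 for Runx2. Differences were tested with limma on log2(normalised FPKM + 1) over 10133 genes with at least 1 normalised FPKM in at least 2 libraries, and a gene is said to rise or fall only where its Benjamini-Hochberg adjusted p was under 0.05. A fold on this scale understates the change of low genes. The median gene itself moved on the spike-in scale, by 0.41 (log2) from 0 to 24 h of PDGF, by -0.29 with JQ1 at 2 h and by -0.48 with JQ1 at 24 h, against 0.01 from 0 to 2 h of PDGF. Differences of the tested genes are therefore also given on a median-centred scale, made from the unnormalised FPKM, where Sox5 was below the filter. On that scale, the median gene lies at 0.00 to 0.05 in size. No source used here says whether libraries came from separate cultures, so p-values measure the spread between libraries, which may be technical. In bulk RNA, fewer cells of a type and less RNA per cell cannot be told apart. PDGF and time in culture entered together, and libraries with and without JQ1 carry different letters in their titles (E to H and A to D), so JQ1 and any preparation that follows the letters cannot be told apart.

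Smooth muscle markers were high at 0 and 2 h and much lower at 24 h. The 8 smooth muscle markers (Acta2, Myh11, Tagln and others) summed to 8811 to 13741 normalised FPKM over the libraries at 0 h and 2 h, to 1724 to 1960 after 24 h of PDGF and to 328 to 483 after 24 h with JQ1. Of the 5 chondrocyte markers, Matn1 and Hapln1 were listed at 0 in every library, and the sum ran from 2.32 to 12.02, with Comp in place of Acan as the main part after 24 h with JQ1. The 6 endothelial markers summed to 0.514 to 3.93, with Cdh5 listed at 0 in every library. The 6 leukocyte markers summed to 5.84 to 72.8, highest after 24 h of PDGF (50.2 to 72.8), with Ptprc and Cd3e listed at 0 in every library. Of these 6 only Cd14 and Cd68 were tested, and they moved differently on the spike-in scale. Cd14 rose from 0 to 24 h of PDGF (log2 difference 1.90, adjusted p = 1.80e-05), and Cd68 was not called (-0.26, adjusted p = 0.667). With JQ1 at 24 h Cd14 was lower (-3.49, adjusted p = 2.89e-09) and Cd68 higher (2.33, adjusted p = 0.000155). The 5 adventitial fibroblast markers with a row summed to 74.9 to 150 in the other groups and to 5.54 to 7.51 after 24 h with JQ1, with Dpt listed at 0 throughout. These sums moved with time and JQ1, as several of the 7 genes did, and their part in the results was not tested.

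**Figure D1:**
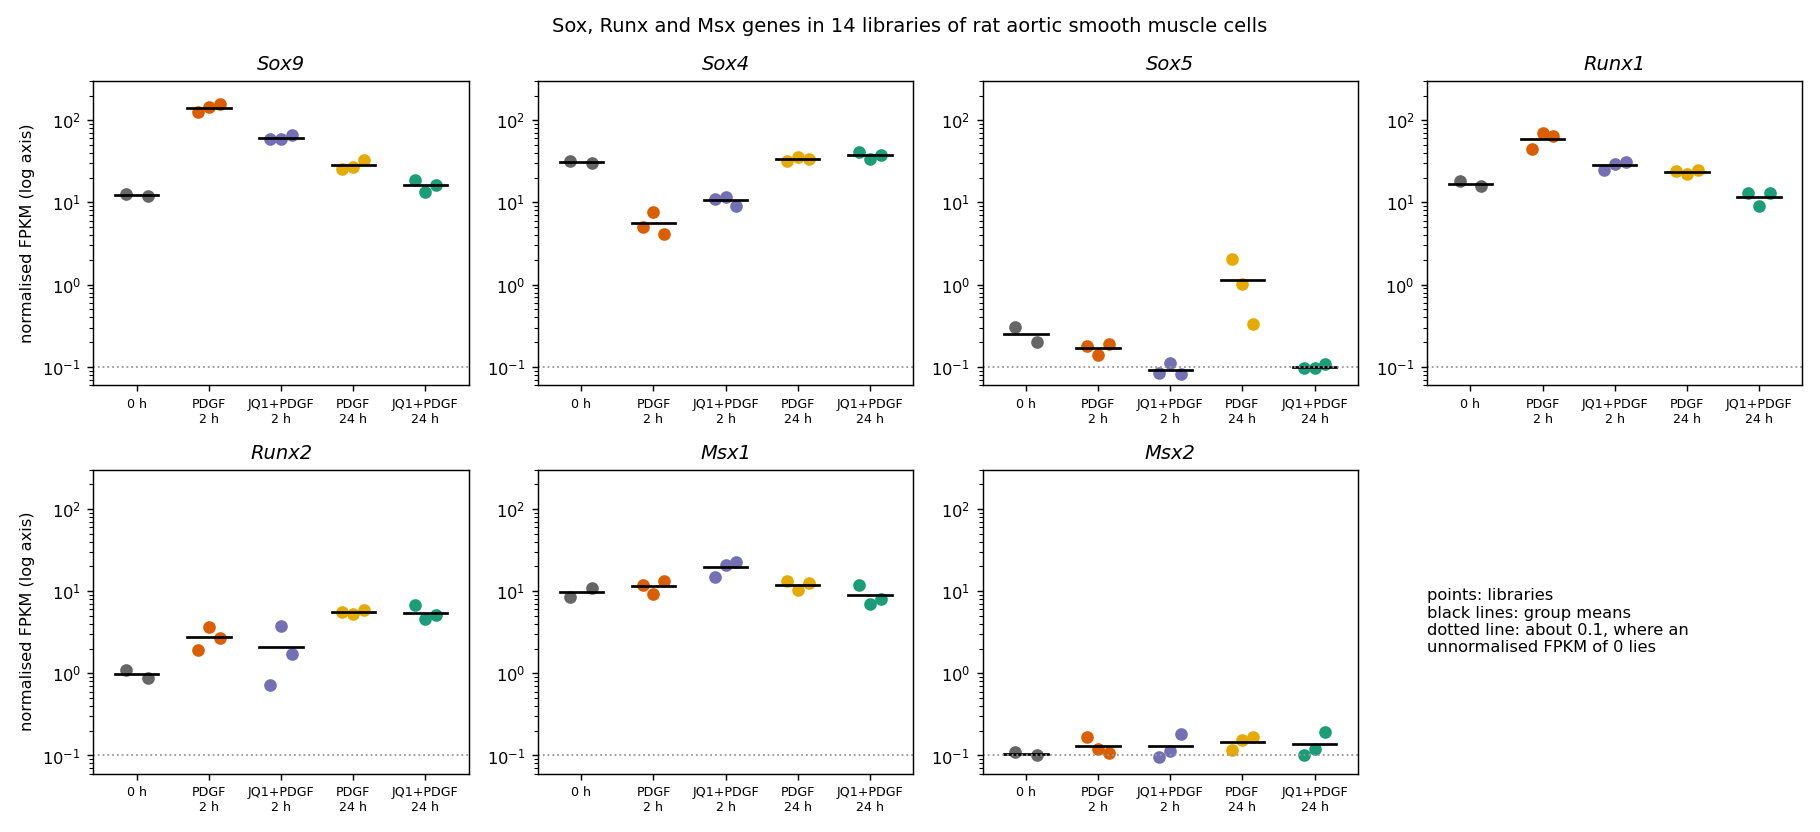
Normalised FPKM (log axis) of the 7 genes in each of the 14 libraries, by group, with points for libraries and black lines for group means. Sox9 and Runx1 are highest in the PDGF 2 h libraries, Sox4 is lowest there, Runx2 is highest in both 24 h groups, and Msx2 lies near the dotted line at about 0.1 where genes with an unnormalised FPKM of 0 lie.

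After 2 h of PDGF, Sox9 and Runx1 rose and Sox4 fell. Sox9 was 11.6 times its unstimulated level and Runx1 3.51 times, whereas Sox4 stood at 18.1% of its unstimulated level. Runx2, Sox5 and Msx1 did not pass the test. Thus 2 of the 6 tested genes were higher and 1 lower, against 17.7% and 12.7% of all tested genes. On the median-centred scale 3 of 5 were higher and 1 lower, against 20.4% and 19.4%. Msx2 was below the filter and was not tested.

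Sox9 measured 11.96 and 12.6 normalised FPKM at 0 h and 126, 144 and 156 after 2 h of PDGF. The ranges were far apart, with a log2 difference of 3.42 ± 0.16 (SE, adjusted p = 1.64e-10), and the difference on the median-centred scale was 3.38. Over the alternatives that left out 1 library, it ran from 3.35 to 3.51. Sox9 made up 96.1% to 98.8% of the summed level of the SoxE genes (Sox8, Sox9 and Sox10) in the group means.

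Runx1 measured 15.7 and 18.0 normalised FPKM at 0 h and 44.3, 63.7 and 69.8 at 2 h. No 2 h library came near the unstimulated pair, and the log2 difference was 1.73 ± 0.20 (SE, adjusted p = 6.78e-06), or 1.69 on the median-centred scale. Runx2, the osteoblast factor, was much lower, at 0.883 and 1.09 at 0 h and 1.91, 2.67 and 3.62 at 2 h. The Runx2 ranges did not overlap, but the log2 difference of 0.89 ± 0.34 (SE) had an adjusted p of 0.0614. It passed on the median-centred scale (0.82, adjusted p = 0.0406), and also without PDGF 2 h library 0 (1.05, adjusted p = 0.0430) or without JQ1 plus PDGF 2 h library 0 (0.0275) or 1 (0.0217), which enter through the shared spread.

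Sox4 measured 29.98 and 32.0 normalised FPKM at 0 h and 4.14, 4.99 and 7.73 after 2 h of PDGF. All 3 stimulated libraries lay below both unstimulated ones, and the log2 difference was -2.31 ± 0.19 (SE, adjusted p = 2.50e-07), or -2.37 when median-centred. The homeobox gene Msx1 overlapped between the groups, at 8.47 and 10.9 against 9.31, 11.9 and 13.2, with a log2 difference of 0.22 ± 0.24 (SE, adjusted p = 0.521), or 0.16 when median-centred. Sox5, the partner of SOX9 in cartilage, stayed below 0.31 in all 5 of these libraries.

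By 24 h of PDGF the pattern had turned. Sox9 was still above its unstimulated level, Runx2 had become higher, Runx1 was not called different from 0 h and Sox4 overlapped its unstimulated range again. Against 0 h, 2 of the 6 tested genes were higher and 0 lower, where all tested genes gave 37.7% and 4.85%. On the median-centred scale 2 of 5 were higher and 0 lower, against 14.8% and 13.4%. All 6 differences were positive on the spike-in scale, where the median gene lay at 0.41, and 4 had an unadjusted p under 0.05 in limma. When median-centred, Sox4 (-0.33) and Msx1 (-0.13) were negative, and 2 of 5 had an unadjusted p under 0.05. The comparison used the same unstimulated libraries as that at 2 h.

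Runx2 measured 5.34, 5.59 and 5.90 normalised FPKM after 24 h of PDGF, above the 0.883 and 1.09 at 0 h. On this scale the 3 libraries lay close together and apart from every library at 0 and 2 h. When median-centred, JQ1 plus PDGF 2 h library 1 (4.10) lay within their range (3.47 to 4.41). The log2 difference from 0 h was 1.73 ± 0.34 (SE, adjusted p = 0.000947), and 1.37 on the median-centred scale (adjusted p = 0.00349). Sox9 measured 25.7, 27.2 and 33.0 at 24 h, which was 1.15 ± 0.16 (log2, SE) above 0 h with an adjusted p of 4.17e-05. The difference kept its call on the median-centred scale at 0.72 (adjusted p = 0.000200).

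Runx1 lay at 22.3, 24.3 and 24.6 normalised FPKM at 24 h, above both unstimulated libraries. Its log2 difference of 0.47 ± 0.20 (SE) had an adjusted p of 0.0637, and was 0.04 on the median-centred scale, close to the median gene. It passed without PDGF 2 h library 0 (adjusted p = 0.0300) or 1 (0.0461), without JQ1 plus PDGF 24 h library 1 (0.0483) and with only these groups in the model (0.0142), at the same 0.47. Sox4 measured 31.7, 33.6 and 35.8 at 24 h and overlapped the unstimulated range. Its difference was 0.12 ± 0.19 (SE, adjusted p = 0.659), with the sign turned on the median-centred scale (-0.33, adjusted p = 0.191). Msx1 measured 10.3, 12.5 and 13.2 and was not called (0.28 ± 0.24, SE, adjusted p = 0.350), also with its sign turned when median-centred (-0.13).

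Between 2 and 24 h of PDGF, Sox9 and Runx1 fell, and Sox4 and Runx2 rose. Sox5 was called higher too, but it passed the filter only through 2 PDGF 24 h libraries, so its call only describes that. With Sox5 counted, 3 genes were higher and 2 lower of the 6 tested, against 44.5% and 11.8% of all tested genes. When median-centred, 1 of 5 was higher and 2 were lower, against 26.6% and 25.8%. Sox9 fell by 2.27 ± 0.14 (log2, SE, adjusted p = 7.36e-09) to 20.2% of its 2 h level. Sox4 rose by 2.43 ± 0.17 (adjusted p = 3.81e-08), a reversal of its early fall, and Runx1 fell by 1.26 ± 0.17 (adjusted p = 2.95e-05). All 3 had the same direction and call when median-centred (-2.66, 2.05 and -1.65).

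The 2 other calls between 2 and 24 h were less firm. Runx2 rose by 0.85 ± 0.30 (log2, SE, adjusted p = 0.0269), but was not called on the median-centred scale (0.54, adjusted p = 0.102). Without the PDGF 2 h library 0 it was 0.68 with an adjusted p of 0.103. It also missed the threshold without PDGF 2 h library 2 (adjusted p = 0.0548) or without PDGF 24 h library 0 (0.0570), 1 (0.0520) or 2 (0.0677). The Sox5 difference was 0.78 ± 0.28 (adjusted p = 0.0275). It lost its call without PDGF 2 h library 0 (adjusted p = 0.0570) or 2 (0.0529) and with only these groups in the model (0.139).

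Sox5 was low in every group. It measured 0.333, 1.01 and 2.03 after 24 h of PDGF, 0.200 and 0.308 at 0 h, 0.138 to 0.190 after 2 h of PDGF, 0.0807 to 0.111 after 2 h with JQ1 and 0.0958 to 0.109 after 24 h with JQ1. Only 2 libraries, both of the PDGF 24 h group, reached 1, so Sox5 entered the test through the group where it was highest, and its calls are a description of that. Against 0 h, the PDGF 24 h difference of 0.68 ± 0.32 (log2, SE, adjusted p = 0.0935) became 0.98 (0.0160) without PDGF 24 h library 2. It was not tested on the median-centred scale or without PDGF 24 h library 0 or 1. Its unnormalised FPKM was listed at 0 in all 3 JQ1 plus PDGF 2 h libraries and in 1 library each of the PDGF 2 h and JQ1 plus PDGF 24 h groups.

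Msx2, which is induced by BMPs and is known from vascular calcification, ran from 0.0958 to 0.196 normalised FPKM over the 14 libraries. The groups overlapped, except that the PDGF 24 h libraries (0.116 to 0.166) lay above both unstimulated ones (0.102 and 0.109). Its unnormalised FPKM was listed at 0 in 8 libraries and reached 0.119 at most. Genes listed at 0 in a library had a median normalised value there of 0.0885 to 0.111, depending on the library. Single zeros could lie above that range, as Msx2 did in PDGF 2 h library 1 (0.121). Msx2 thus lay at or near the level of genes listed at 0, and depth is unknown from FPKM.

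**Figure D2:**
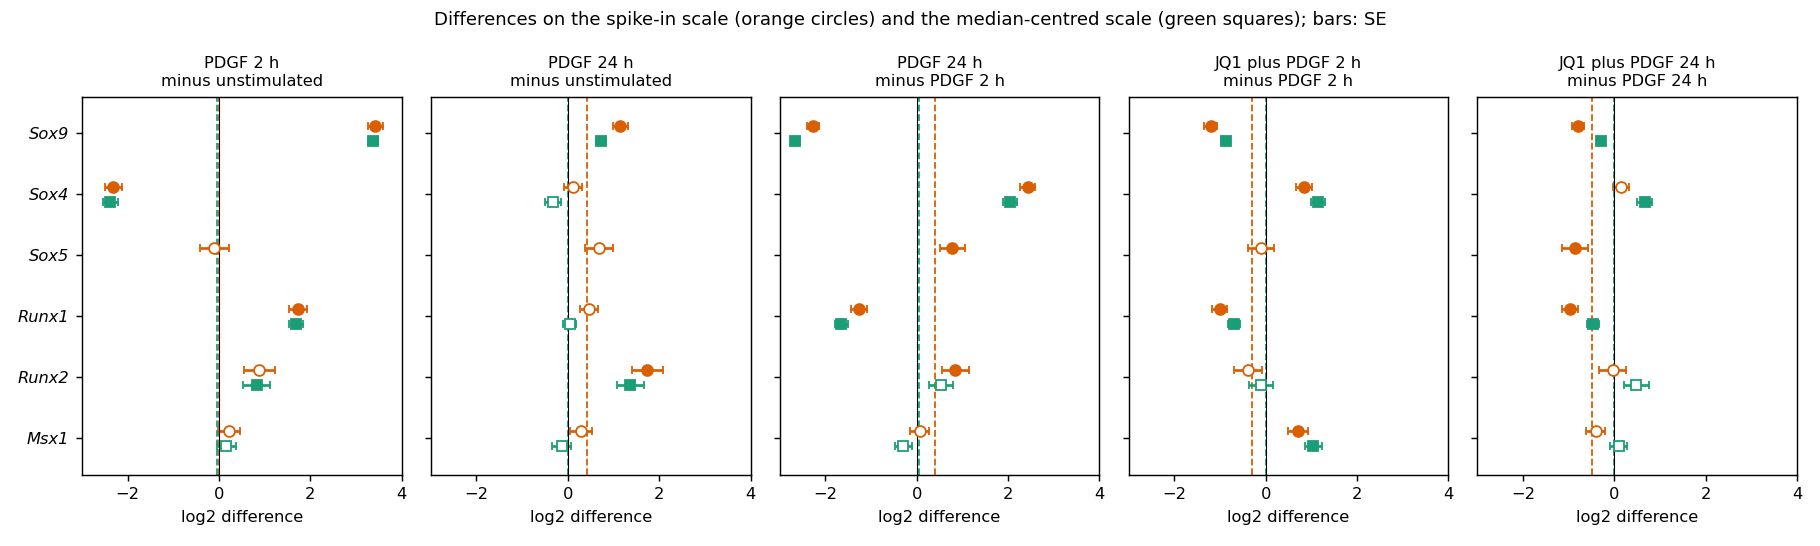
Log2 differences with SE of the 6 tested genes in 5 comparisons, on the spike-in scale (orange circles) and the median-centred scale (green squares), filled where limma's adjusted p was under 0.05. Dashed lines mark the median of all tested genes on each scale. The Sox9, Sox4 and Runx1 differences at 2 h of PDGF lie far from these lines, and the Sox4 difference with JQ1 at 24 h is filled only on the median-centred scale.

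With JQ1 before PDGF, Sox9, Runx1 and Sox4 at 2 h lay nearer to their unstimulated levels than with PDGF alone. These are the genes called at 2 h of PDGF, and the same PDGF 2 h libraries enter both comparisons. How many of all genes did the same was not counted. No group received JQ1 without PDGF, so a JQ1 difference already there before PDGF and a smaller response to PDGF cannot be told apart. Sox9 and Runx1 were lower than with PDGF alone, Sox4 was higher, and Msx1, which PDGF alone had not changed detectably, was higher too. Of the 6 tested genes, 2 were higher and 2 lower, against 7.24% and 34% of all tested genes. When median-centred, 2 of 5 were higher and 2 lower, against 20.1% and 21.5%. Runx2 and Sox5 were not called.

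Sox9 measured 58.6, 58.9 and 65.2 normalised FPKM with JQ1 at 2 h, against 126 to 156 with PDGF alone. Every JQ1 library lay at 41.3% to 46.0% of the mean with PDGF alone, or 51.4% to 56.7% when median-centred. The log2 difference was -1.20 ± 0.14 (SE, adjusted p = 1.09e-05) and -0.87 on the median-centred scale. Against 0 h, in libraries shared with the PDGF comparison, Sox9 with JQ1 was still higher by 2.22 ± 0.16 (log2, SE, adjusted p = 2.99e-08), beside 3.42 with PDGF alone (2.51 and 3.38 when median-centred).

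Runx1 with JQ1 measured 24.8, 29.5 and 31.3 normalised FPKM, below all PDGF 2 h libraries and above both unstimulated ones. The libraries stood at 41.9% to 52.8% of the mean with PDGF alone (55.1% to 64.9% when median-centred), and the log2 difference was -1.01 ± 0.17 (SE, adjusted p = 0.000336), or -0.70 when median-centred. Against 0 h it was higher by 0.72 ± 0.20 (adjusted p = 0.00675), or 0.99 when median-centred, a call that was lost without unstimulated library 1 (0.63, adjusted p = 0.0664).

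Sox4 with JQ1 measured 9.16, 10.9 and 11.7 normalised FPKM, above all 3 libraries with PDGF alone and below both at 0 h. It was higher than with PDGF alone by 0.84 ± 0.17 (log2, SE, adjusted p = 0.00137), or 1.15 when median-centred, and lower than at 0 h, with a difference of -1.47 ± 0.19 (adjusted p = 2.20e-05), or -1.22 when median-centred. With JQ1 at 2 h, Sox9, Runx1 and Sox4 each lay between the unstimulated and the PDGF 2 h libraries, and the share of all genes that did so was not counted. Against 0 h, 3 of the 6 tested genes were higher with JQ1 plus PDGF at 2 h and 1 was lower, where all tested genes gave 13.2% and 33.7%. When median-centred, 3 of 5 were higher and 1 lower, against 25.6% and 27.1%.

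Msx1 measured 14.8, 21.0 and 22.7 normalised FPKM with JQ1 at 2 h, above every library of the other 4 groups, whose highest was 13.2. The log2 difference from PDGF alone was 0.71 ± 0.21 (SE, adjusted p = 0.0140), and 1.04 when median-centred. It missed the threshold without PDGF 2 h library 1 (0.58, adjusted p = 0.0536) or JQ1 plus PDGF 2 h library 2 (0.59, adjusted p = 0.0639). Against 0 h the difference was 0.93 ± 0.24 (adjusted p = 0.00458), or 1.20 when median-centred, and 0.76 with an adjusted p of 0.0636 without unstimulated library 0.

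Runx2 was the most scattered of the tested genes with JQ1 at 2 h, at 0.717, 1.71 and 3.79 normalised FPKM, and its range covered that with PDGF alone. The log2 difference of -0.38 ± 0.30 (SE) had an adjusted p of 0.336, and was -0.10 (adjusted p = 0.784) when median-centred. A single library decided this, since without JQ1 plus PDGF 2 h library 1, the one at 3.79, the difference was -0.76 with an adjusted p of 0.0370. Against 0 h the difference of 0.50 (adjusted p = 0.241) was 0.72 (0.0553) when median-centred, and 0.86 (0.0356) without JQ1 plus PDGF 2 h library 0.

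After 24 h, JQ1 again went with lower Sox9 and Runx1, while Runx2 was not called different from PDGF alone. On the spike-in scale, 0 of the 6 tested genes were higher and 3 lower, against 4.61% and 48.5% of all tested genes. A share of 3 lower genes in 6 is near that background. The 3 were Sox9, Runx1 and Sox5, the only 3 with an unadjusted p under 0.05 in limma. Sox5 is in the count only because PDGF 24 h libraries brought it past the filter. On the median-centred scale 1 of 5 was higher and 2 were lower, against 23.1% and 25.8%. Sox4 was the gene whose call depended on the scale.

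Sox9 with JQ1 at 24 h measured 13.2, 16.1 and 18.9 normalised FPKM, below the 25.7 to 33.0 with PDGF alone. The log2 difference was -0.80 ± 0.14 (SE, adjusted p = 0.000195), and -0.30 (adjusted p = 0.0208) when median-centred, where the libraries stood at 72.4% to 84.8% of the mean with PDGF alone. All 3 libraries were just above the unstimulated pair, but the difference from 0 h (0.35 ± 0.16, SE) had an adjusted p of 0.0856 on the spike-in scale and 0.00502 on the median-centred scale, where it was 0.42. Without JQ1 plus PDGF 24 h library 1 it was 0.48 with an adjusted p of 0.0286.

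Runx1 with JQ1 at 24 h was 9.13, 12.9 and 13.03 normalised FPKM, the lowest of the 5 groups and without overlap with any. The log2 difference from PDGF alone was -0.98 ± 0.17 (SE, adjusted p = 0.000229), and -0.48 (adjusted p = 0.0103) when median-centred. Against 0 h the difference was -0.51 ± 0.20 with an adjusted p of 0.0489, just inside the threshold, and -0.44 (0.0276) when median-centred. That call was lost in 9 of the 14 fits without 1 library, with values from -0.60 to -0.35, among them -0.42 (adjusted p = 0.247) without unstimulated library 0, -0.60 (0.0880) without unstimulated library 1 and -0.35 (0.184) without JQ1 plus PDGF 24 h library 1.

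Runx2 with JQ1 at 24 h measured 4.55, 5.14 and 6.75 normalised FPKM and overlapped the 5.34 to 5.90 with PDGF alone. The log2 difference was -0.04 ± 0.30 (SE, adjusted p = 0.920), with the sign turned when median-centred (0.48, adjusted p = 0.149). On the median-centred scale the ranges did not overlap, at 5.38 to 6.18 with JQ1 and 3.47 to 4.41 with PDGF alone. Runx2 with JQ1 was above 0 h by 1.69 ± 0.34 (adjusted p = 0.000891), beside 1.73 with PDGF alone (1.85 and 1.37 when median-centred). Against 0 h, 1 of the 6 tested genes (Runx2) was higher with JQ1 plus PDGF at 24 h and 1 (Runx1) was lower, where all tested genes gave 17.6% and 23.4%. When median-centred, 2 of 5 (Sox9 and Runx2) were higher and 1 (Runx1) was lower, against 25.1% and 24.8%.

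Sox4 with JQ1 at 24 h measured 33.7, 37.8 and 40.9 normalised FPKM, overlapping PDGF alone. It was not called on the spike-in scale (0.15 ± 0.17, SE, adjusted p = 0.4996), but was higher by 0.66 (adjusted p = 0.00354) on the median-centred scale. Msx1 measured 6.99, 8.00 and 11.7 and was not called (-0.42 ± 0.21, SE, adjusted p = 0.110), with the sign turned when median-centred (0.09). Without JQ1 plus PDGF 24 h library 0 it was -0.61 with an adjusted p of 0.0254. The Sox5 difference was -0.87 ± 0.28 (adjusted p = 0.0169), within the limits given for it above.

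Whether the JQ1 difference itself changed between 2 and 24 h was tested as a difference of differences. Msx1 passed, with a JQ1 difference of 0.71 at 2 h and -0.42 at 24 h and a change of -1.12 ± 0.30 (log2, SE, adjusted p = 0.0133), or -0.95 (adjusted p = 0.0171) when median-centred. It was 0 genes higher and 1 lower of the 6 tested, against 4.82% and 17.5% of all tested genes. When median-centred, 1 of 5 was higher and 1 lower, against 13.5% and 16.4%. Runx1 had JQ1 differences of -1.01 at 2 h and -0.98 at 24 h, with a change of 0.03 ± 0.25 (adjusted p = 0.947), or 0.22 (0.425) when median-centred. Sox9 changed by 0.40 ± 0.20 (adjusted p = 0.161), which was 0.58 and called when median-centred (adjusted p = 0.00645). The Sox4 change of -0.69 ± 0.25 had an adjusted p of 0.0554, and was -0.49 (0.115) when median-centred, -0.91 (0.00372) without PDGF 2 h library 1 and -0.78 (0.0489) without JQ1 plus PDGF 2 h library 2. The Sox5 change of -0.77 (adjusted p = 0.184) was -1.07 (0.0449) without PDGF 24 h library 2.

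Within the Runx family, Runx1 made up most of the summed level in every group, and the share of Runx2 was higher at 24 h. Runx2 made up 5.47% ± 0.321 (SD, n = 2) of the summed normalised FPKM of Runx1, Runx2 and Runx3 at 0 h and 4.32% ± 0.518 (SD, n = 3) after 2 h of PDGF. It made up 18.3% ± 0.978 (SD, n = 3) after 24 h of PDGF and 31.7% ± 3.04 (SD, n = 3) after 24 h with JQ1. The 24 h groups did not overlap each other or the earlier groups. With 3 libraries against 3, the 2-sided exact permutation test gave 0.1 for 24 h against 2 h of PDGF and for JQ1 against PDGF alone at 24 h, the smallest p it allows. A factor common to all genes of a library cancels in a share. The like shares of the 24 h groups on the median-centred scale (17.8% and 32.3%) are therefore no separate check. As the levels above show, on the spike-in scale the step at 24 h with JQ1 came with a lower Runx1 and a Runx2 that was not called different. When median-centred, mean Runx1 stood at 70.7% of its mean with PDGF alone and mean Runx2 at 149%. The Runx2 ranges did not overlap on that scale, but the difference was not called (limma adjusted p = 0.149).

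**Figure D3:**
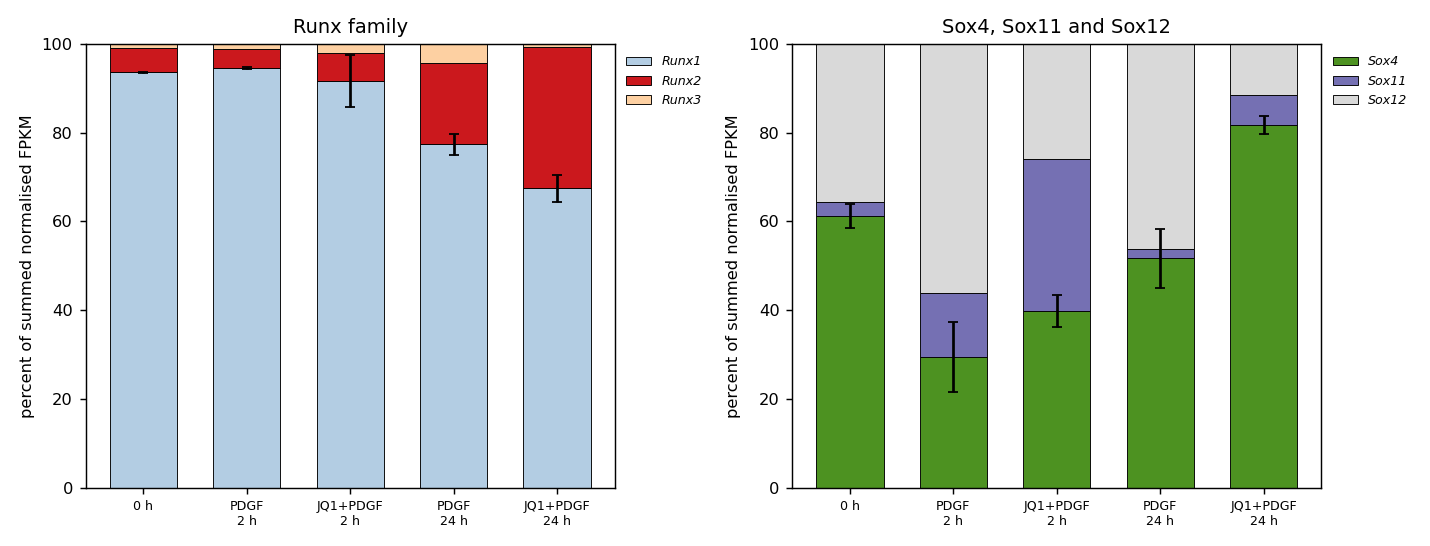
Mean percent of the summed normalised FPKM of Runx1, Runx2 and Runx3 (left) and of Sox4, Sox11 and Sox12 (right) in each group, with SD bars on Runx1 and Sox4. Runx2 takes 4.32% after 2 h of PDGF and 31.7% after 24 h with JQ1, and Sox4 takes 29.5% and 81.8% of its family in the same groups.

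Sox4 belongs to the SoxC family with Sox11 and Sox12, and the 3 genes moved differently. Sox4 was 61.2% of their sum at 0 h, 29.5% ± 7.81 (SD, n = 3) after 2 h of PDGF and 51.7% ± 6.64 after 24 h. With JQ1 at 24 h it was 81.8% ± 2.02 (SD, n = 3), without overlap with PDGF alone (exact permutation test, 2-sided p = 0.1, the smallest possible). Sox11 rose with JQ1 at 2 h by 1.40 ± 0.25 (log2, SE, adjusted p = 0.000396), from a mean of 2.85 to 9.13 normalised FPKM. Sox12 fell with JQ1 at 24 h, from 30.6 to 5.28 (log2 difference -2.32 ± 0.21, adjusted p = 2.72e-07). These 2 calls also held when median-centred, at 1.78 and -1.82. Of the 16 other Sox genes looked for, 12 had a row and 5 were tested. PDGF gave 1 higher and 1 lower at 2 h (list median 0.53) and 1 higher and 0 lower at 24 h (0.46, and 0 called when median-centred), and JQ1 gave 2 higher and 1 lower at 2 h (0.02, and 2 and 0 when median-centred) and 1 higher and 1 lower at 24 h (0.29). The medians over all genes were 0.01, 0.41, -0.29 and -0.48 in the same order. The SOX9 partner Sox6 had a mean near 0.1 normalised FPKM in each group (0.0960 to 0.110).

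Values of the companion genes below are on the spike-in scale, and the calls of single genes named there held in the same direction when median-centred, except where said. Of all tested genes, 17.7% were higher and 12.7% lower at 2 h of PDGF, and 37.7% and 4.85% at 24 h. With JQ1 the shares were 7.24% and 34% at 2 h, and 4.61% and 48.5% at 24 h. When median-centred, they were 20.4% and 19.4%, 14.8% and 13.4%, 20.1% and 21.5%, and 23.1% and 25.8%, in the same order. Among the partners and corepressors of RUNX proteins, Twist1 and Twist2, whose products restrain RUNX2, rose with PDGF at 2 h. Twist1 went from a mean of 23.5 to 101.0 normalised FPKM (log2 difference 2.07 ± 0.13, SE, adjusted p = 8.22e-09), and Twist2 rose by 1.96 ± 0.20 (adjusted p = 1.98e-06). Of 16 tested genes of the 18 looked for, 6 were higher and 2 lower at 2 h (list median 0.30 against 0.01 over all genes), and 9 higher and 0 lower at 24 h. The list median at 24 h was 0.63 against 0.41 over all genes, and when median-centred 4 were higher and 1 lower of 15 tested. The DNA-binding partner Cbfb was called at 24 h on the spike-in scale only (0.89 ± 0.21, adjusted p = 0.00333), with 0.46 and an adjusted p of 0.140 when median-centred. With JQ1, 1 was higher and 4 lower at 2 h (3 and 1 when median-centred), and 1 higher and 9 lower at 24 h (3 and 7 when median-centred). The list medians were -0.18 and -0.75, beside -0.29 and -0.48 over all genes. At 24 h Vdr, the vitamin D receptor gene, fell (-2.06 ± 0.21, adjusted p = 9.06e-07), as did Runx1t1, a corepressor gene (-1.93 ± 0.31, adjusted p = 7.66e-05). Twist1 stood at means of 55.5 and 55.6 normalised FPKM at 24 h without and with JQ1, and was called higher with JQ1 only when median-centred (0.52, adjusted p = 0.000195).

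Cartilage genes, many of them known SOX9 targets, went in different directions. Of 26 looked for, 23 had a row and 14 were tested, with 3 higher and 0 lower at 2 h of PDGF (3 and 1 of 13 when median-centred) and 2 higher and 2 lower at 24 h (2 and 3 when median-centred). The list medians were 0.11 and -0.02, beside 0.01 and 0.41 over all genes. Acan, the core protein of cartilage proteoglycan, rose from a mean of 1.58 to 9.27 normalised FPKM at 2 h (log2 difference 1.97 ± 0.23, SE, adjusted p = 8.73e-06) and was at 8.63 at 24 h. With JQ1 it was 2.09 at 2 h (-1.71 ± 0.20, adjusted p = 1.33e-05) and 0.487 at 24 h (-2.69 ± 0.20, adjusted p = 3.51e-08). Col2a1, the main cartilage collagen, had group means of 0.135 to 0.225 and was not tested. The growth factor receptor gene Fgfr3 fell after 24 h of PDGF (-2.36 ± 0.16, adjusted p = 2.80e-08), and so did the fibrillar collagen gene Col11a1 (-2.07 ± 0.15, adjusted p = 5.47e-08).

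With JQ1, 1 cartilage gene was higher and 3 were lower at 2 h, and 1 was higher and 5 were lower at 24 h. The higher genes were Fgfr3 at 2 h (log2 difference 0.55 ± 0.14, SE, adjusted p = 0.00558) and Comp at 24 h (1.47 ± 0.26, adjusted p = 0.000215). Wwp2, the ubiquitin ligase gene that hosts the microRNA miR-140, fell with JQ1 at both times, with log2 differences of -1.79 ± 0.17 (SE, adjusted p = 2.12e-06) at 2 h and -1.76 ± 0.17 (adjusted p = 5.72e-07) at 24 h. Epyc, a small proteoglycan gene, fell at 24 h from a mean of 12.5 to 0.341 (-3.32 ± 0.23, adjusted p = 1.07e-08). The list medians with JQ1 were -0.25 and -0.49, beside -0.29 and -0.48 over all genes. When median-centred, 2 of 13 tested genes were higher and 3 lower at 2 h, and 2 higher and 5 lower at 24 h.

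Most of the tested bone and mineralisation genes rose with PDGF. Of 25 looked for, 15 were tested, with 8 higher and 0 lower at 2 h (9 and 1 when median-centred) and 10 higher and 0 lower at 24 h (9 and 3 when median-centred). Of all tested genes, 17.7% were higher and 12.7% lower at 2 h (20.4% and 19.4% when median-centred). At 24 h 37.7% were higher and 4.85% lower (14.8% and 13.4% when median-centred). The list median was 0.83 at 2 h and 1.31 at 24 h, against 0.01 and 0.41 over all genes. The 4 with the largest 24 h differences were Ankh, Mgp, Spp1 and Enpp1, whose products act on pyrophosphate or bind mineral. Ankh, which carries pyrophosphate or its source out of the cell, went from a mean of 6.88 to 303 normalised FPKM (log2 difference 5.26 ± 0.18, SE, adjusted p = 1.84e-11). Mgp, an inhibitor of calcification, went from 658 to 14986 (4.50 ± 0.15, adjusted p = 1.19e-11), and Spp1, which encodes osteopontin, from 6187 to 41311 (2.75 ± 0.20, adjusted p = 6.77e-08).

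Osteoblast genes were mixed, and those named here were chosen after their values were seen. Col1a1, the main bone collagen gene, rose after 24 h of PDGF (log2 difference 1.64 ± 0.18, SE, adjusted p = 4.52e-06), as did the receptor gene Pth1r (2.12 ± 0.23, adjusted p = 4.02e-06). Dmp1 and Phospho1, which act in mineralisation, were also called higher, at means of only 1.79 and 1.65 normalised FPKM at 24 h. Dmp1 was highest in the PDGF 24 h group and near the filter of 1, so it may have entered the test only through that group. The group means of Sp7, the osteoblast factor downstream of RUNX2, were 0.0960 to 0.104 normalised FPKM, with an unnormalised FPKM of 0 in every library. Alpl (0.104 to 0.232), Ibsp (0.0951 to 0.219) and Bglap (0.101 to 2.31), which encode alkaline phosphatase, bone sialoprotein and osteocalcin, were low as well, and of these 4 genes only Bglap was tested and was not called (adjusted p = 0.812 at 24 h of PDGF). Slc20a1, a phosphate transporter, rose at 2 h by 2.34 ± 0.16 (log2, SE, adjusted p = 1.55e-08). With JQ1, 0 genes of this list were higher and 7 lower at 2 h (4 and 5 when median-centred), and 1 higher and 8 lower at 24 h (4 and 8 when median-centred). The list medians were -0.33 and -0.83, beside -0.29 and -0.48 over all genes. Mgp was 1647 with JQ1 at 24 h (-3.19 ± 0.13, adjusted p = 3.51e-11), Ankh was 64.5 (-2.20 ± 0.16, adjusted p = 2.47e-08), and Pth1r, the parathyroid hormone receptor gene, went from 22.2 to 0.774 (-3.71 ± 0.20, adjusted p = 8.41e-10).

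**Figure D4:**
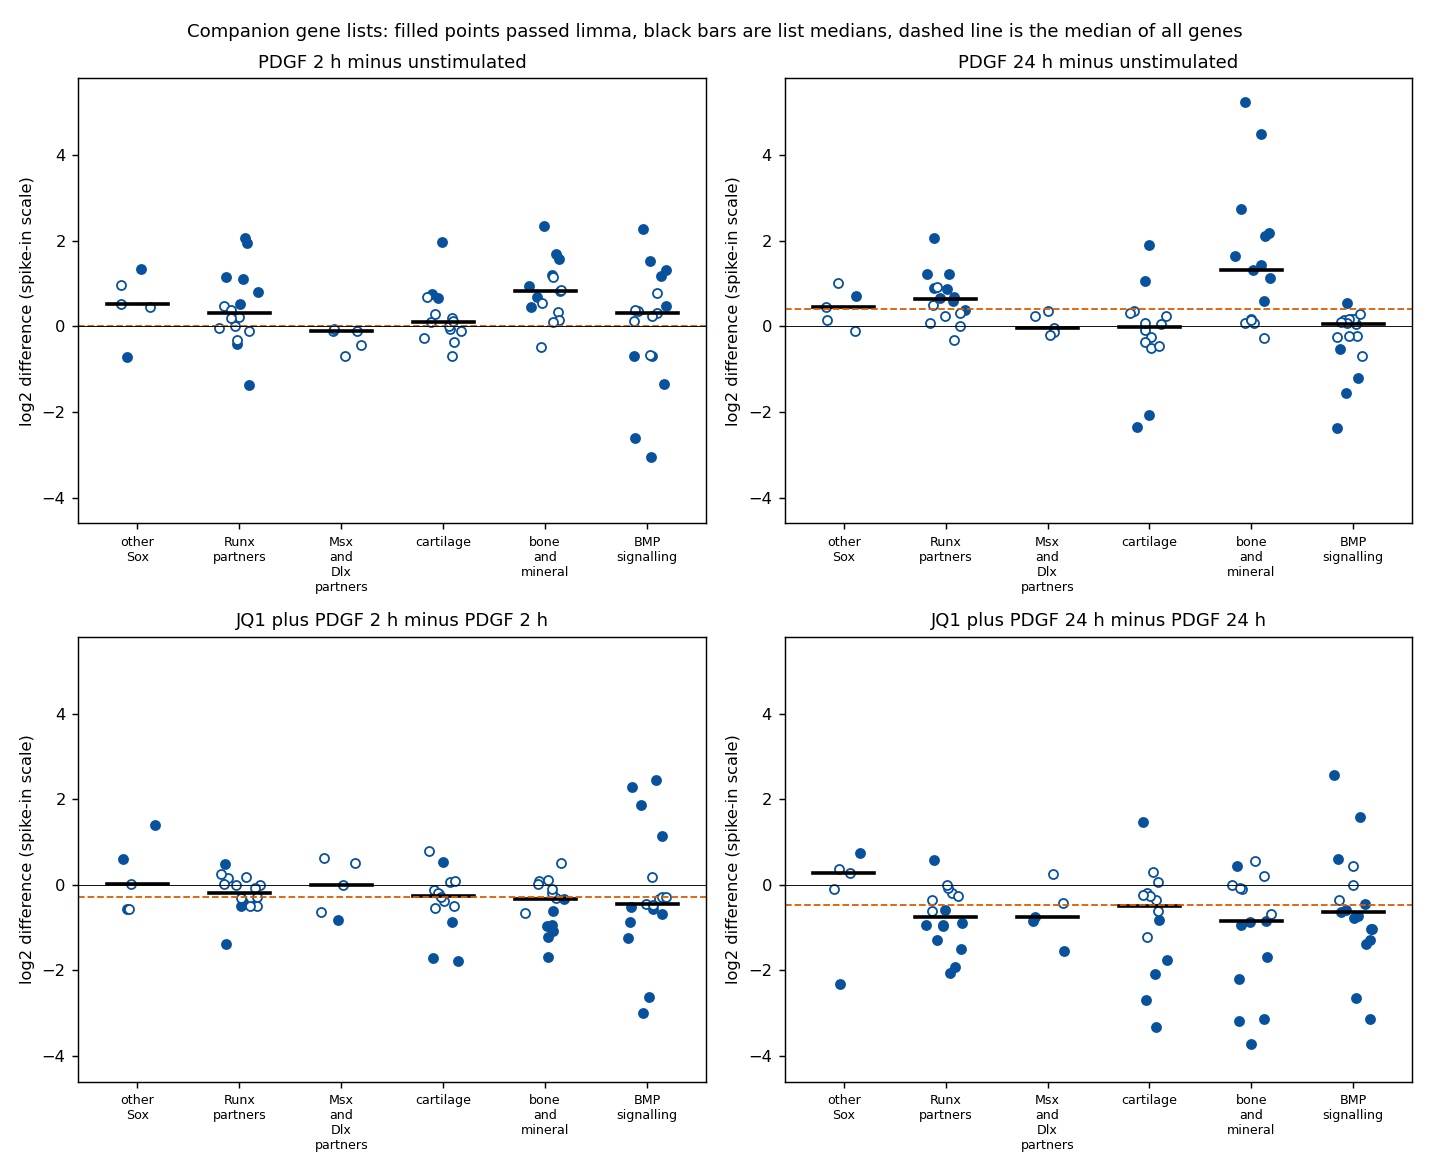
Log2 differences on the spike-in scale of the tested genes in 6 companion lists, in 4 comparisons, with filled points for limma's adjusted p under 0.05, black bars for list medians and a dashed line for the median of all tested genes. After 24 h of PDGF the bone and mineralisation list has a median of 1.31 against 0.41 over all genes, and with JQ1 the cartilage medians lie near the dashed lines.

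BMP signalling, the pathway upstream of MSX and RUNX2, changed in both directions. Of 17 tested genes of the 23 looked for, 5 were higher and 5 lower at 2 h of PDGF (list median 0.31), and 1 higher and 4 lower at 24 h (0.05, and 0 and 6 when median-centred), beside medians of 0.01 and 0.41 over all genes. Bmp2, a ligand, rose at 2 h from a mean of 0.892 to 8.20 normalised FPKM (log2 difference 2.28 ± 0.27, SE, adjusted p = 1.17e-05), and Grem1, a secreted BMP antagonist, rose by 1.53 ± 0.13 (adjusted p = 3.53e-07). Id2 and Id1 fell at 2 h (-2.60 ± 0.53 and -1.34 ± 0.43, adjusted p = 0.00164 and 0.0283), whereas Id3 rose (1.18 ± 0.12, adjusted p = 2.57e-06). Smad6, an inhibitor inside the cell, fell at 2 h from 14.8 to 0.897 (-3.04 ± 0.28, adjusted p = 7.18e-07) and was 15.6 at 24 h. Sox4 was likewise lowest after 2 h of PDGF.

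With JQ1, 4 BMP genes were higher and 7 lower at 2 h (5 and 5 when median-centred), and 3 were higher and 11 lower at 24 h (4 and 5 when median-centred). The list medians were -0.45 and -0.64, beside -0.29 and -0.48 over all genes, of which 34% and 48.5% were lower. Grem1 fell with JQ1, with log2 differences of -2.99 ± 0.12 (SE, adjusted p = 8.02e-10) at 2 h and -3.13 ± 0.12 (adjusted p = 1.59e-11) at 24 h, to means of 17.7 and 3.99 normalised FPKM. Smad6 was higher with JQ1 at 2 h by 2.29 ± 0.25 (adjusted p = 6.06e-06) and lower at 24 h (-1.04 ± 0.25, adjusted p = 0.00250), the latter not called when median-centred (-0.51, adjusted p = 0.104). Id1, a BMP target, was higher with JQ1 at 2 h by 1.87 ± 0.38 (adjusted p = 0.00127) and at 24 h by 2.57 ± 0.38 (adjusted p = 4.64e-05). Id2 and Id4 were also called higher at both times. Id3 was called lower at both (-0.86 and -0.58, adjusted p = 2.23e-05 and 0.000362), at 24 h not when median-centred (-0.08, adjusted p = 0.389). Msx1, also a BMP target, was called higher at 2 h and was not called at 24 h. Against 0 h, Id1 and Id2 with JQ1 plus PDGF at 2 h were not called (0.53 and -0.15, adjusted p = 0.327 and 0.840). Id3, Id4 and Msx1 were higher than at 0 h in that group (0.32, 1.26 and 0.93). In the JQ1 plus PDGF 24 h group, Id1 and Id4 were higher than at 0 h (1.88 and 0.79). Id3 was lower there (-1.12), and Id2 was not called (-0.79, adjusted p = 0.2505).

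Among 12 Msx and Dlx partners looked for, 5 were tested, and none was called with PDGF against 0 h at 2 or 24 h by limma on the spike-in scale, with 1 and 0 at an unadjusted p under 0.05 and 1 called lower at each time when median-centred. With JQ1, 0 were higher and 1 lower at 2 h (1 and 1 of 4 when median-centred), and 0 higher and 3 lower at 24 h (0 and 2 when median-centred). The list medians were -0.10 and -0.03 with PDGF, beside 0.01 and 0.41 over all genes, and 0.01 and -0.76 with JQ1, beside -0.29 and -0.48. Lbh, a limb bud and heart regulator, fell with JQ1, with log2 differences of -0.82 ± 0.12 (SE, adjusted p = 9.51e-05) at 2 h and -1.55 ± 0.12 (adjusted p = 5.04e-08) at 24 h.

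The genes whose log2(normalised FPKM + 1) followed each member most closely over the 14 libraries were listed, as a description that rests on 5 group means and on shared libraries. For Sox9 they were the interferon-related genes Ifih1 and Irf7 and the signalling adaptor gene Bcl10 (Pearson r 0.99, 0.98 and 0.98). Ifih1 had means of 3.02 normalised FPKM at 0 h, 31.6 at 2 h and 18.1 at 2 h with JQ1. For Runx1 they were Helz2, Zfp281 and Tnc (0.99, 0.98 and 0.97), of which Tnc, a matrix glycoprotein gene, went from 13.3 at 0 h to 285 at 2 h and 60.2 at 2 h with JQ1. For Sox4 they were Txnip, Snap47 and Ralgapb (0.97, 0.97 and 0.96), and Txnip fell from 66.3 at 0 h to 3.15 at 2 h and stood at 222 after 24 h with JQ1. For Runx2 they were Ndfip2, Rab7a and Tgfbr3 (0.95, 0.94 and 0.93), and for Msx1 Luzp1, Zcchc2 and Fdx1 (0.93, 0.91 and 0.90). Sox5 gave Fam25a, Riiad1 and Islr (0.99, 0.98 and 0.98), which like it were read mainly in PDGF 24 h libraries.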

How the data were processed

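Libraries were stranded and read from 1 end over 40 bases, per the labels' protocols. The submitters' processing notes name HISAT, Cufflinks 2.0.0 and build rn6. The authors deposited unnormalised and normalised FPKM, 1 column per library, for 17404 features (92 of them spike-ins). The annotation and the method of normalisation are not given in the sources used here, and FPKM hold no read depth. From 9901 to 11503 genes were above 0 per library.

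Columns were assigned to groups by name (0 without a group), and libraries are named by the digit of the column. Limma 3.58.1 in R 4.3.3 fitted log2(normalised FPKM + 1) with 5 group means, 9 residual degrees of freedom and a mean trend, and Benjamini-Hochberg adjustment ran over all tested genes of a comparison. The fit was tested on simulated data. The median-centred scale divided the unnormalised FPKM by median-of-ratios size factors (9980 genes tested). The genes, lists and comparisons were chosen with earlier results of these data known. Named genes were the 7 factors, up to 4 called genes per list and comparison with the largest difference, and the 3 genes most correlated with each tested factor over the libraries, named symbols only. Low or absent genes that a list turns on (Col2a1, Sox6, Sp7, Alpl, Ibsp and Bglap) and the Twist1 values with JQ1 at 24 h and Col1a1, Dmp1, Phospho1, Pth1r and Smad6 at 24 h were named after their values were seen. So were Id3 and Id4 with JQ1, Id1 with JQ1 at 2 h, Id1 and Id3 with PDGF at 2 h, and the Id values of JQ1 plus PDGF against 0 h. Comp with JQ1 at 24 h and Cd68 with PDGF at 24 h were also named after their values were seen. List genes were matched by symbol or by a synonym in RefSeq. Alternatives were the unnormalised or centred scale, pseudocounts of 0.1 and 0.5, other filters, no mean trend, only the groups compared, each library left out, and a pair of libraries left out.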

Additional observations from a re-analysis of the deposited data

Results flagged for a closer look

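The JQ1 difference of Msx1, a homeobox gene induced by BMPs, changed between the times: it was 0.71 (called) at 2 h and -0.42 (not called, adjusted p = 0.110) at 24 h, the latter 0.09 when median-centred, and the difference of the differences was -1.12 (log2, SE 0.30, limma adjusted p = 0.0133), or -0.95 when median-centred. The 3 JQ1 plus PDGF 2 h libraries measured 14.8, 21.0 and 22.7 normalised FPKM and the 3 JQ1 plus PDGF 24 h libraries 6.99, 8.00 and 11.7. Without PDGF 2 h library 1 and PDGF 24 h library 0 together, it was -0.92 with an adjusted p of 0.0522.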

How the results depend on the processing

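The 24 called differences of the 7 genes were refitted under 540 alternatives: 511 kept direction and call, 29 kept the direction and lost the call, and 0 reversed. Of 213 called differences of companion and marker genes, 173 kept their call in all alternatives that tested them, and 0 reversed. For 24 h against 2 h of PDGF, 5 genes were called, Sox5 among them, and 3 on the median-centred scale and on the unnormalised FPKM, where Sox5 was not tested. For JQ1 plus PDGF 24 h against 0 h, 2 were called, and 1 with no filter or no mean trend. For the change of the JQ1 difference, 1 was called, and 2 when median-centred, with the unnormalised FPKM or with a pseudocount of 0.1.

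Leaving out each library in turn gave 3 to 4 called genes for PDGF 2 h against 0 h, 2 to 3 for PDGF 24 h against 0 h, 3 to 5 for PDGF 24 h against 2 h, 3 to 5 for JQ1 at 2 h, 2 to 4 for JQ1 at 24 h, 3 to 5 and 1 to 2 for JQ1 plus PDGF against 0 h at 2 and 24 h, and 1 to 2 for the change of the JQ1 difference. Over all genes, the 3078 calls of PDGF 2 h against 0 h became 1788 with only these groups, 1942 without unstimulated library 1 and 1606 without unstimulated library 0. The 4314 calls at 24 h became 2819 when median-centred, 2826 with the unnormalised FPKM and 2487 without unstimulated library 0. Apart from the fits with fewer libraries, the cause was not tested. No paired analysis was possible because the columns end in digits and the titles carry letters, so that no column was tied to 1 sample. FPKM give no read depth, which limits what can be said of Sox5 and Msx2.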
